A study of Mus musculus with 13 samples.

Results

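The enzymes that make and break down the prostanoids, the hormone-like lipids derived from arachidonic acid, were followed across 13 RNA-seq libraries of isolated mouse neurovasculature. The members are 10 genes named for this role and found by their Ensembl identifiers, 10 of the 47643 genes of the count table, and all 10 were among the 17285 genes that passed the filter on low counts. Male outbred CD1 mice aged 8 to 10 weeks received lipopolysaccharide (LPS, from salmonella enterica typhimurium, 3 mg/kg, intraperitoneally) at 0, 6 and 24 h and were killed at 28 h. The group LPS_Vehicle had 5 mice and the group LPS_CPD4645 had 4, which were given the monoacylglycerol lipase (MAGL) inhibitor CPD-4645 subcutaneously at 10 mg/kg, 30 min after each LPS dose by the labels and methods, although another passage of the study names a longer delay. The group Sham_Vehicle had 4 mice, for which the series text names PBS in place of LPS. The vehicle was a mixture of DMSO, Cremophor and saline. No group received CPD-4645 without LPS, and all mice were sampled at a single time. The brains were not perfused, so that blood left in the vessels entered the preparation.

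Prostanoids are made in steps. Phospholipases free arachidonic acid from membranes, and in the brain MAGL frees it as well by hydrolysing the endocannabinoid 2-arachidonoylglycerol (2-AG). Cyclooxygenases convert arachidonic acid to prostaglandin H2, and terminal synthases turn this into prostaglandin E2, prostaglandin D2, prostacyclin or thromboxane, which are later oxidised by prostaglandin dehydrogenase. In brain vessels, induced cyclooxygenase and prostaglandin E synthase are known for carrying the fever signal of systemic inflammation.

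The sequences just before the start sites are shown for the 3 members that were higher after LPS, and for Ptgs1 as the cyclooxygenase that is not induced in most tissues. Each is the 250 bases before the annotated start from the RefSeq promoters of build GRCm38.p6, read 5′ to 3′ on the strand of the gene. The windows are chr1:150099781-150100030 on the plus strand for Ptgs2, chr2:30903298-30903547 on the minus strand for Ptges, chr2:25469750-25469999 on the minus strand for Ptgds and chr2:36230176-36230425 on the plus strand for Ptgs1. The Ptges start is that of a transcript which begins inside the annotated gene (chr2:30889471-30929863). Capitals mark letters that match 1 of 6 motifs searched on both strands.
Ptgs2: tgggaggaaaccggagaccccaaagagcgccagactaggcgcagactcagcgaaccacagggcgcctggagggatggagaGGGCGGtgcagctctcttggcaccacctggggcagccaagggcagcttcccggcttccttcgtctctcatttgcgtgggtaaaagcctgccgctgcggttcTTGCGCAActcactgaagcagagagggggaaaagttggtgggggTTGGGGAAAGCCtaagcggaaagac
Ptges: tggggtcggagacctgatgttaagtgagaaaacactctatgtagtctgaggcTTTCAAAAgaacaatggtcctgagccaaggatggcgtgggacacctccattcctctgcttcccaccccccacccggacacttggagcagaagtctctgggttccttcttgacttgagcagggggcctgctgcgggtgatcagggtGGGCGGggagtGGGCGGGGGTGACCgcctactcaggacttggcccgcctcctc
Ptgds: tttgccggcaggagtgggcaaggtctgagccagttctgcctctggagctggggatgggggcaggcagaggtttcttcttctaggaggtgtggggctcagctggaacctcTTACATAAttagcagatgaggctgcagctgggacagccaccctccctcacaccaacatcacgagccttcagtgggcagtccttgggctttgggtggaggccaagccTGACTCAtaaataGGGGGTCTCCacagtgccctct
Ptgs1: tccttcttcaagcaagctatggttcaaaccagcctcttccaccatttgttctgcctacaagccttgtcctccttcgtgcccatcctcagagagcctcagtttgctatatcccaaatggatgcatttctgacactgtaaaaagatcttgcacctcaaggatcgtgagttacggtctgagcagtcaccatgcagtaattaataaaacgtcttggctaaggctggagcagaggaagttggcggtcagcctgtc

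The motifs were the TATA box TATAAA, the cyclic AMP response element core TGACGT, the AP-1 site TGANTCA, a C/EBP-like site TTNNGNAA, the GC box GGGCGG and an NF-kB-like site GGGNNNNNCC. In the 250 bases, the Ptgs2 sequence holds a GC box, a pair of C/EBP-like matches and an NF-kB-like match, of which the last overlaps the second C/EBP-like match. The Ptges sequence holds a C/EBP-like match, a pair of GC boxes and an NF-kB-like match that overlaps the second GC box. The Ptgds sequence holds a C/EBP-like, an AP-1 and an NF-kB-like match, and the Ptgs1 sequence holds none of the 6. Members that were not called higher after LPS hold such matches too. Within their 250 bases, Pla2g4a, Ptges2 and Hpgd have a C/EBP-like match, Ptges3 an NF-kB-like match and Tbxas1 an AP-1 match. Hpgd and Ptges3 have a GC box. In the 50 bases after the start, Ptgs2 has a cyclic AMP response element core and Ptgs1 an NF-kB-like match. Such short motifs are common. Of the 32851 RefSeq windows cut to the same 250 bases, 36.8% hold the C/EBP-like site, 32.7% the GC box, 45.8% the NF-kB-like site, 12.4% the TATA box, 6.75% the AP-1 site and 6.47% the cyclic AMP response element core. A match is a string of letters and not a measured binding site. RefSeq windows were found for 9 of the 10 members, all but Ptgis. On chromosome 1, Pla2g4a and Ptgs2 lie 138740 bases apart, and 5 members lie on chromosome 2.

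Library totals ran from 7813559 counts in LPS_Vehicle mouse 3 to 55133373 counts in LPS_Vehicle mouse 2, with a median of 26989885. Mitochondrial genes took 6.47 to 12.7% of the counts in Sham_Vehicle, 4.84 to 7.05% in LPS_Vehicle and 3.97 to 8.17% in LPS_CPD4645, with the highest share in Sham_Vehicle mouse 4. Values are given as CPM, the counts of a gene relative to the library total, scaled by TMM, a normalisation for library composition. Endothelial markers were present, with a summed level over 10 genes of 399 to 625 CPM in Sham_Vehicle, 422 to 891 CPM in LPS_Vehicle and 515 to 714 CPM in LPS_CPD4645. The summed level of 8 neuronal markers was 7860 to 10900 CPM and that of 8 oligodendrocyte markers 3824 to 7443 CPM, so that the preparation held much RNA of other brain cells. Neutrophil markers (10 genes) summed to 3.65 to 11.2 CPM in Sham_Vehicle, 72.6 to 290.0 CPM in LPS_Vehicle and 7.94 to 28.5 CPM in LPS_CPD4645. In such bulk tissue, fewer cells of a type and less RNA per cell cannot be told apart.

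After LPS, 3 of the 10 genes rose, namely Ptgs2, Ptges and Ptgds, which make prostaglandin H2, E2 and D2. None of the 10 fell in the edgeR quasi-likelihood test, whose p-values were adjusted over all genes by the Benjamini-Hochberg method. For comparison, 11.1% of all genes tested were called higher and 8.86% lower. At an unadjusted p of at most 0.05, 4 of the 10 were higher and 1 lower, beside 16.9% and 15.4% of all genes, and DESeq2 called 1 lower (Ptges3). The median log2 fold change of the 10 genes was 0.23, against 0.00 over all genes.

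**Figure D1:**
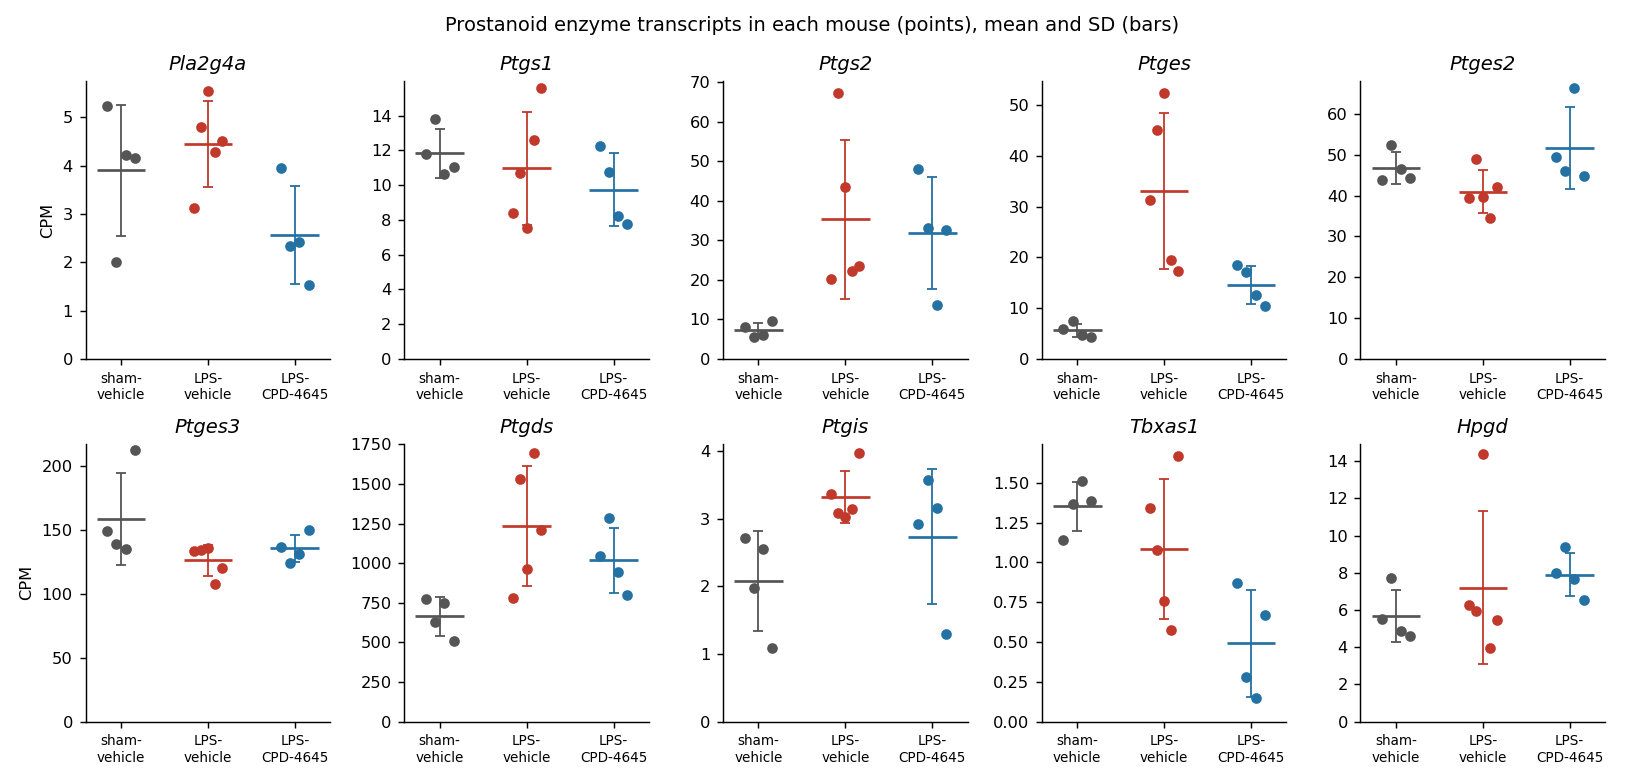
Each panel plots the CPM of 1 gene (vertical axis, starting at 0) in every mouse of the 3 groups, with the group mean as a horizontal line and the SD as an error bar. Ptgs2 and Ptges lay at 5.51 to 9.68 and 4.39 to 7.40 CPM in the sham mice and above that in every LPS mouse, while Ptgs1 overlapped between the groups.

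Levels of different genes can be compared only per length of transcript, here CPM per kb of merged exon. On that scale Ptgds stood first in every group, at 403 ± 75.03 (SD, n = 4) in Sham_Vehicle, 749 ± 230.4 (SD, n = 5) in LPS_Vehicle and 618 ± 124 (SD, n = 4) in LPS_CPD4645. Ptges3 came second at 71.7 ± 16.3, 57.0 ± 5.50 and 61.2 ± 4.82 CPM per kb in the same order. Both stood apart from the gene below them in every group, with no overlap between mice. In Sham_Vehicle, Ptges2 followed at 9.24 ± 0.77 CPM per kb, then Hpgd at 3.38 ± 0.84, Ptgs1 at 3.04 ± 0.36, Ptgs2 at 1.60 ± 0.41, Ptges at 1.43 ± 0.34, Ptgis at 0.81 ± 0.29, Pla2g4a at 0.61 ± 0.21 and Tbxas1 at 0.15 ± 0.02. Of these, Hpgd and Ptgs1 overlapped each other, as did Ptgs2 with Ptges and Ptgis with Pla2g4a. In LPS_Vehicle, Ptges (8.42 ± 3.92 CPM per kb), Ptges2 (8.10 ± 1.04), Ptgs2 (7.70 ± 4.39), Hpgd (4.28 ± 2.43) and Ptgs1 (2.83 ± 0.84) each overlapped its neighbour. In LPS_CPD4645 the order of these 5 was Ptges2 (10.2 ± 1.98 CPM per kb), Ptgs2 (6.96 ± 3.08), Hpgd (4.70 ± 0.70), Ptges (3.73 ± 0.95) and Ptgs1 (2.51 ± 0.54), again with overlaps between neighbours. Tbxas1 was last in every group.

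Pla2g4a, the cytosolic phospholipase A2 that releases arachidonic acid, was measured at 5.22, 2.01, 4.22 and 4.15 CPM in the 4 sham mice. In the LPS_Vehicle mice it was 3.12, 4.79, 5.55, 4.27 and 4.501 CPM, and in the LPS_CPD4645 mice 3.95, 2.34, 2.41 and 1.53 CPM. The sham and LPS_Vehicle mice overlapped, and the log2 fold change was 0.17 ± 0.29 (SE, adjusted p = 0.733). With CPD-4645, Pla2g4a fell by 0.81 on the log2 scale (SE 0.30, edgeR adjusted p = 0.0462) against LPS_Vehicle, although LPS_CPD4645 mouse 1 lay above LPS_Vehicle mouse 1. Against Sham_Vehicle the log2 fold change was -0.64 ± 0.31 (SE, adjusted p = 0.110). The call against LPS_Vehicle rested on few counts, 39 to 67 per LPS_CPD4645 library. It was lost when any 1 of 9 mice was left out: Sham_Vehicle 3 or 4, LPS_Vehicle 2, 3, 4 or 5, or LPS_CPD4645 2, 3 or 4, with adjusted p from 0.0581 to 0.155.

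The cyclooxygenases differed in their response to LPS. Ptgs1, the constitutive COX-1, was 11.8, 13.8, 10.6 and 11.1 CPM in Sham_Vehicle, 8.41, 10.7, 7.56, 12.6 and 15.6 CPM in LPS_Vehicle and 12.3, 10.7, 8.24 and 7.77 CPM in LPS_CPD4645. The groups overlapped throughout. Its log2 fold change was -0.09 ± 0.20 (SE, adjusted p = 0.799) after LPS and -0.20 ± 0.20 (SE, adjusted p = 0.482) with CPD-4645 against LPS_Vehicle.

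Ptgs2, the inducible COX-2, was 7.99, 5.51, 6.13 and 9.68 CPM in the sham mice. In the LPS_Vehicle mice it was 20.1, 67.1, 43.4, 22.3 and 23.5 CPM, every value above the highest sham mouse. Ptgs2 rose 4.81-fold (log2 2.27 ± 0.37 SE, edgeR adjusted p = 0.000245), and the call held in each of the 22 alternative fits, with log2 values from 1.87 to 2.42. In the LPS_CPD4645 mice it was 48.1, 33.1, 13.6 and 32.7 CPM, within or below the range of LPS_Vehicle and above every sham mouse. It was 4.33-fold higher than in Sham_Vehicle (log2 2.11 ± 0.38 SE, adjusted p = 0.000311). Between the LPS groups no difference was shown, the log2 fold change being -0.15 ± 0.34 (SE, adjusted p = 0.764) with an approximate 95% interval of -0.82 to 0.51. The sign of that small value changed without LPS_Vehicle mouse 2, the highest of its group, to 0.24, and without LPS_CPD4645 mouse 3, the lowest, to 0.11. Per kb of exon, Ptgs2 made up 34.3% ± 7.22 (SD, n = 4) of the cyclooxygenase transcripts in Sham_Vehicle, 70.0% ± 12.95 (SD, n = 5) in LPS_Vehicle and 71.4% ± 9.05 (SD, n = 4) in LPS_CPD4645. The sham mice, at 25.3% to 42.6%, lay below all LPS mice, the lowest of which was at 56.1%. With the longest transcript as the length, the mean shares were 28.5%, 64.4% and 65.7% in the same order. The lowest LPS mouse was then at 49.2%, above the highest sham mouse at 36.0%.

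**Figure D2:**
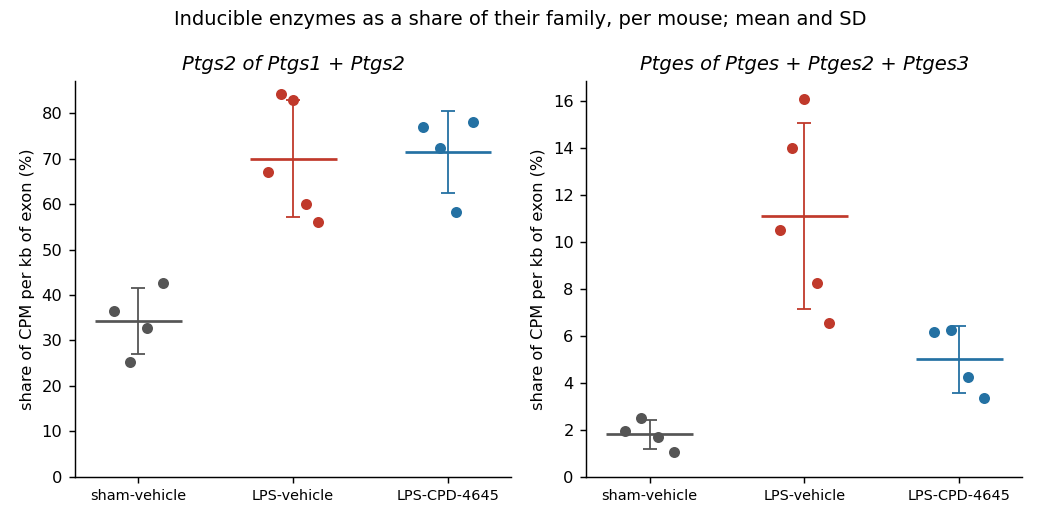
The left panel plots Ptgs2 as a percentage of Ptgs1 and Ptgs2 together, and the right panel Ptges as a percentage of the 3 prostaglandin E synthases, both per kb of exon, with 1 point per mouse, the mean as a line and the SD as an error bar. Both LPS groups stood near 70% for Ptgs2, whereas for Ptges LPS_Vehicle had a mean of 11.1% and LPS_CPD4645 one of 5.00%.

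Of the 3 prostaglandin E synthases, Ptges encodes the inducible microsomal enzyme that works with COX-2. It was 5.93, 7.40, 4.78 and 4.39 CPM in the sham mice. In the LPS_Vehicle mice it was 31.4, 45.003, 52.3, 19.6 and 17.2 CPM, all above sham. Ptges rose 5.80-fold (log2 2.54 ± 0.30 SE, edgeR adjusted p = 8.03e-06), the largest log2 fold change among the 10 genes in that comparison. In the LPS_CPD4645 mice it was 18.4, 17.1, 12.6 and 10.5 CPM. These lay within or below the lower end of LPS_Vehicle, with LPS_CPD4645 mouse 1 above LPS_Vehicle mouse 5, and all above sham. With CPD-4645, Ptges fell by 1.17 on the log2 scale (SE 0.28, edgeR adjusted p = 0.00473), that is to 0.445 of its level in LPS_Vehicle. It was still 2.58-fold higher than in Sham_Vehicle (log2 1.37 ± 0.31 SE, adjusted p = 0.00181). All 3 calls held in each of the 22 alternative fits, with log2 values of -1.33 to -0.90 between the LPS groups. Ptges made up 1.81% ± 0.60 (SD, n = 4) of the prostaglandin E synthase transcripts per kb in Sham_Vehicle, 11.1% ± 3.96 (SD, n = 5) in LPS_Vehicle and 5.00% ± 1.43 (SD, n = 4) in LPS_CPD4645.

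Neutrophil markers moved in the same directions as Ptges. Of 10 markers 9 were tested, 8 were higher after LPS and all 9 were lower with CPD-4645 against LPS_Vehicle, and none of the 10 was at 0 throughout a group. The same 2 mice had the highest neutrophil sums and the highest Ptges levels, in opposite order. LPS_Vehicle mouse 2 had a neutrophil sum of 290.0 CPM and 45.003 CPM of Ptges, and LPS_Vehicle mouse 3 had 114.6 CPM and 52.3 CPM. In LPS_CPD4645 the orders differed. Mouse 4 had the highest neutrophil sum of that group, 28.5 CPM, and the lowest Ptges, 10.5 CPM. Mice 1, 2 and 3 had sums of 27.7, 12.8 and 7.94 CPM, with Ptges at 18.4, 17.1 and 12.6 CPM. The 6 border macrophage markers summed to 12.9 to 15.1 CPM in Sham_Vehicle, 30.5 to 52.8 CPM in LPS_Vehicle and 13.8 to 22.9 CPM in LPS_CPD4645. The 6 monocyte markers summed to 17.5 to 20.8 CPM, 28.0 to 44.2 CPM and 19.1 to 29.1 CPM in the same order, and the 8 astrocyte markers to 1350 to 1682 CPM, 1777 to 2317 CPM and 1649 to 2209 CPM. The endothelial sum had medians of 568, 842 and 596 CPM, with overlap between all groups. The part of these markers in the results for Ptges, Ptgs2, Ptgds and Pla2g4a was not tested. The 3 genes most like Ptges over the 13 libraries, by Pearson correlation of log2 CPM, were Ncf4 (r = 0.97), Clec4d (r = 0.97) and A2m (r = 0.97). Of these, Ncf4 encodes a subunit of the phagocyte NADPH oxidase, Clec4d a lectin receptor of myeloid cells and A2m a secreted protease inhibitor. For Ptgs2 they were Ier3, Il6 and Il15ra (each r = 0.96), an immediate early gene, a cytokine and a cytokine receptor chain. For Ptgds they were Cd93 (r = 0.91), Cab39l (r = 0.90) and B3galt5 (r = 0.89). The points of these correlations share the groups and the libraries, so they are descriptions with no test.

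Ptges and Ptgs2 act in sequence, and their ratio was compared directly, a choice made after their values were seen. The log2 ratio of Ptges to Ptgs2 counts was -0.38 ± 0.64 (SD, n = 4) in Sham_Vehicle, -0.06 ± 0.51 (SD, n = 5) in LPS_Vehicle and -1.02 ± 0.67 (SD, n = 4) in LPS_CPD4645. Between the LPS groups it differed by -0.96, with p = 0.0635 in an exact two-sided permutation test, for which 0.0159 is the smallest value possible, and 0.190 after adjustment over 3 comparisons. A different response of the 2 genes to CPD-4645 was thus not shown. Without LPS_CPD4645 mouse 3 the difference was -1.27, with an exact unadjusted p of 0.0357, the smallest possible with 3 mice against 5, and leaving out any other mouse of these groups gave p from 0.0857 to 0.143.

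**Figure D3:**
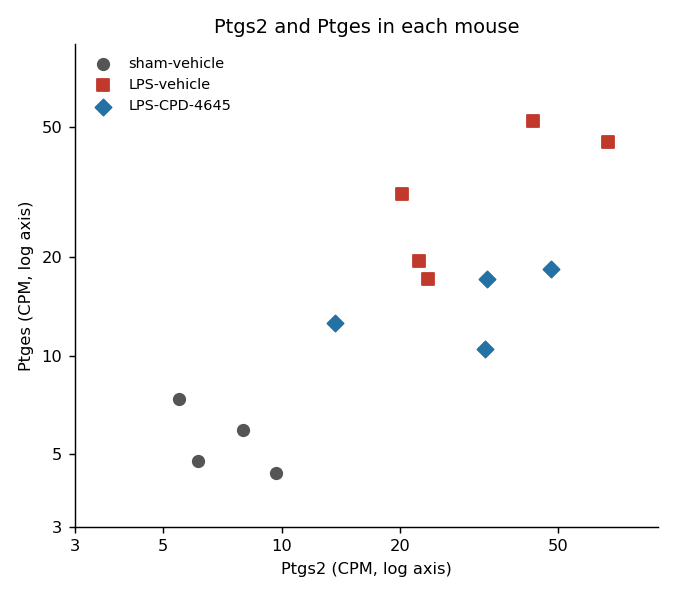
Ptges (vertical) is plotted against Ptgs2 (horizontal) in CPM on log axes, with 1 point per mouse and a colour and shape for each group. The LPS_CPD4645 mice lay at 13.6 to 48.1 CPM of Ptgs2 and 10.5 to 18.4 CPM of Ptges. The LPS_Vehicle mice lay at 20.1 to 67.1 CPM and 17.2 to 52.3 CPM.

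Ptges2 encodes a second membrane-associated prostaglandin E synthase. It was 43.9, 52.3, 46.5 and 44.3 CPM in the sham mice, 39.5, 49.1, 39.7, 34.6 and 42.0 CPM in LPS_Vehicle and 49.4, 46.1, 66.5 and 44.9 CPM in LPS_CPD4645. After LPS its log2 fold change was -0.19 ± 0.12 (SE, adjusted p = 0.299). With CPD-4645 it rose against LPS_Vehicle by 0.33 on the log2 scale (SE 0.12, edgeR adjusted p = 0.0413), with overlap between the groups. The call was lost without LPS_Vehicle mouse 1, 3, 4 or 5 or LPS_CPD4645 mouse 3, with adjusted p from 0.0569 to 0.178, and without LPS_CPD4645 mouse 3, the highest of all, the log2 value was 0.20. It was also lost with limma-voom, the method of the study (adjusted p = 0.0554), with voom quality weights (0.0712), with only the 2 groups compared (0.0544) and without the 2 shallowest libraries (0.0790).

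Ptges3 encodes the cytosolic prostaglandin E synthase, also known as the HSP90 cochaperone p23. It was 149, 139, 135 and 212 CPM in Sham_Vehicle, 133, 134, 136, 108 and 120 CPM in LPS_Vehicle and 137, 124, 132 and 150 CPM in LPS_CPD4645. Its log2 fold change after LPS was -0.33 ± 0.12 (SE, edgeR adjusted p = 0.0531), just outside the threshold. Without Sham_Vehicle mouse 2 or 3 it passed, with adjusted p of 0.0348 and 0.0349, and without Sham_Vehicle mouse 4, the highest of all, the log2 value was -0.16 (adjusted p = 0.264). That mouse also had the highest mitochondrial share, 12.7%, whose part in the result was not tested. With CPD-4645 the log2 fold change was 0.10 ± 0.12 (SE, adjusted p = 0.533) against LPS_Vehicle.

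Ptgds, the lipocalin-type prostaglandin D synthase and an abundant brain transcript, was 775, 628, 751 and 507 CPM in the sham mice. In the LPS_Vehicle mice it was 783, 1529, 962, 1695 and 1208 CPM, every value above the highest sham mouse, though mouse 1 only just. Ptgds rose 1.86-fold (log2 0.89 ± 0.20 SE, edgeR adjusted p = 0.00312), below the 2-fold change that the study also required, and was called in each of the 22 alternative fits. In the LPS_CPD4645 mice it was 1048, 1285, 946 and 798 CPM, again all above sham and within the range of LPS_Vehicle. The log2 fold change between the LPS groups was -0.28 ± 0.19 (SE, adjusted p = 0.292), with an approximate 95% interval of -0.66 to 0.10. Against Sham_Vehicle it was 0.62 ± 0.20 (SE, adjusted p = 0.0229). That call was lost without Sham_Vehicle mouse 4 (log2 0.52, adjusted p = 0.0705) and without LPS_CPD4645 mouse 2 (log2 0.48, adjusted p = 0.0904).

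Ptgds is known from leptomeninges, choroid plexus and oligodendrocytes, and their marker sums were compared. The 8 fibroblast and leptomeningeal markers summed to 140 to 163 CPM in Sham_Vehicle, 178 to 195 CPM in LPS_Vehicle and 142 to 209 CPM in LPS_CPD4645. After LPS 2 of these 8 were called higher (Mgp and Dcn) and 2 lower (Col1a1 and Col1a2). The choroid plexus markers (8 genes) ranged from 352 to 722, 180 to 388 and 252 to 793 CPM, and the oligodendrocyte markers from 5225 to 7443, 3824 to 5072 and 4511 to 5594 CPM, so that the latter were lower in LPS_Vehicle than in every sham mouse. The part of the leptomeningeal markers in the result for Ptgds was not tested.

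Ptgis, the prostacyclin synthase of vessel walls, was 2.71, 1.97, 2.55 and 1.09 CPM in Sham_Vehicle, 3.37, 3.09, 3.02, 3.15 and 3.96 CPM in LPS_Vehicle and 2.93, 3.57, 3.16 and 1.30 CPM in LPS_CPD4645. All LPS_Vehicle mice lay above all sham mice, but the log2 fold change of 0.67 ± 0.30 (SE) did not pass (edgeR adjusted p = 0.135). Between the LPS groups it was -0.28 ± 0.30 (SE, adjusted p = 0.504), and -0.03 without LPS_CPD4645 mouse 4, the lowest of its group. The gene shares 156 exon bases with 1110018N20Rik on the opposite strand, and the sources used here do not state which strand setting was counted, so reads of the pair may not be fully separated.

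Tbxas1, the thromboxane synthase of platelets and macrophages, had the lowest counts of the set, 4 to 60 per library. It was 1.14, 1.37, 1.51 and 1.38 CPM in Sham_Vehicle, 1.34, 1.08, 0.76, 0.57 and 1.67 CPM in LPS_Vehicle and 0.87, 0.28, 0.15 and 0.67 CPM in LPS_CPD4645. Every LPS_CPD4645 mouse lay below every sham mouse, whereas the LPS groups overlapped. Against Sham_Vehicle, Tbxas1 fell by 1.53 on the log2 scale (SE 0.51, edgeR adjusted p = 0.0242). The call was lost without Sham_Vehicle mouse 3 (log2 -1.45, adjusted p = 0.0559), LPS_CPD4645 mouse 2 (log2 -1.32, adjusted p = 0.0759) or LPS_CPD4645 mouse 3 (log2 -1.20, adjusted p = 0.0661). Against LPS_Vehicle the log2 fold change was -1.23 ± 0.49 (SE, adjusted p = 0.0653), which passed without LPS_Vehicle mouse 4 (-1.41, adjusted p = 0.0429) and without LPS_CPD4645 mouse 1 (-1.57, adjusted p = 0.0322). It also passed with limma-voom, the method of the study (-1.47, adjusted p = 0.0420), with DESeq2 (-1.23, adjusted p = 0.0424) and without the 2 shallowest libraries (-1.66, adjusted p = 0.0284). Microglial markers were also low in these mice, with 7 of 8 called lower in LPS_CPD4645 than in Sham_Vehicle and a summed level of 157 to 208 CPM, against 228 to 306 CPM in Sham_Vehicle and 176 to 308 CPM in LPS_Vehicle. Platelet and border macrophage sums were not lower there. The 8 platelet markers, of which 3 were tested, summed to 15.5 to 21.7 CPM in LPS_CPD4645 and 12.75 to 18.4 CPM in Sham_Vehicle, with 1 called higher (Gp1bb) and none lower. Of the 6 border macrophage markers, whose sums were 13.8 to 22.9 CPM and 12.9 to 15.1 CPM, 1 was called higher (Stab1) and none lower. The part of these cells in the result was not tested.

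Hpgd, the 15-hydroxyprostaglandin dehydrogenase that starts prostaglandin breakdown, was 5.53, 7.72, 4.90 and 4.59 CPM in Sham_Vehicle. In LPS_Vehicle it was 6.28, 5.94, 14.4, 3.97 and 5.48 CPM, and in LPS_CPD4645 7.99, 9.41, 7.68 and 6.55 CPM. LPS_Vehicle mouse 3, the shallowest library, stood far above the others. Its log2 fold change after LPS was 0.28 ± 0.29 (SE, adjusted p = 0.553), and -0.07 without that mouse. For LPS_CPD4645 it was 0.19 ± 0.28 (SE, adjusted p = 0.638) against LPS_Vehicle, and 0.55 without LPS_Vehicle mouse 3 (adjusted p = 0.0519). Against Sham_Vehicle it was 0.47 ± 0.30 (SE, adjusted p = 0.222), and 0.59 with voom quality weights, the only alternative fit that called it (adjusted p = 0.0337).

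Counted together, CPD-4645 against LPS_Vehicle gave 1 of the 10 genes higher (Ptges2) and 2 lower (Ptges and Pla2g4a), where 14.1% of all genes tested were higher and 16.4% lower. Their median log2 fold change was -0.24, against -0.02 over all genes. In LPS_CPD4645 against Sham_Vehicle, 3 were higher (Ptgs2, Ptges and Ptgds) and 1 lower (Tbxas1), where 19.5% of all genes were higher and 19.3% lower. The 3 comparisons share groups, so that their counts are not independent of one another.

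**Figure D4:**
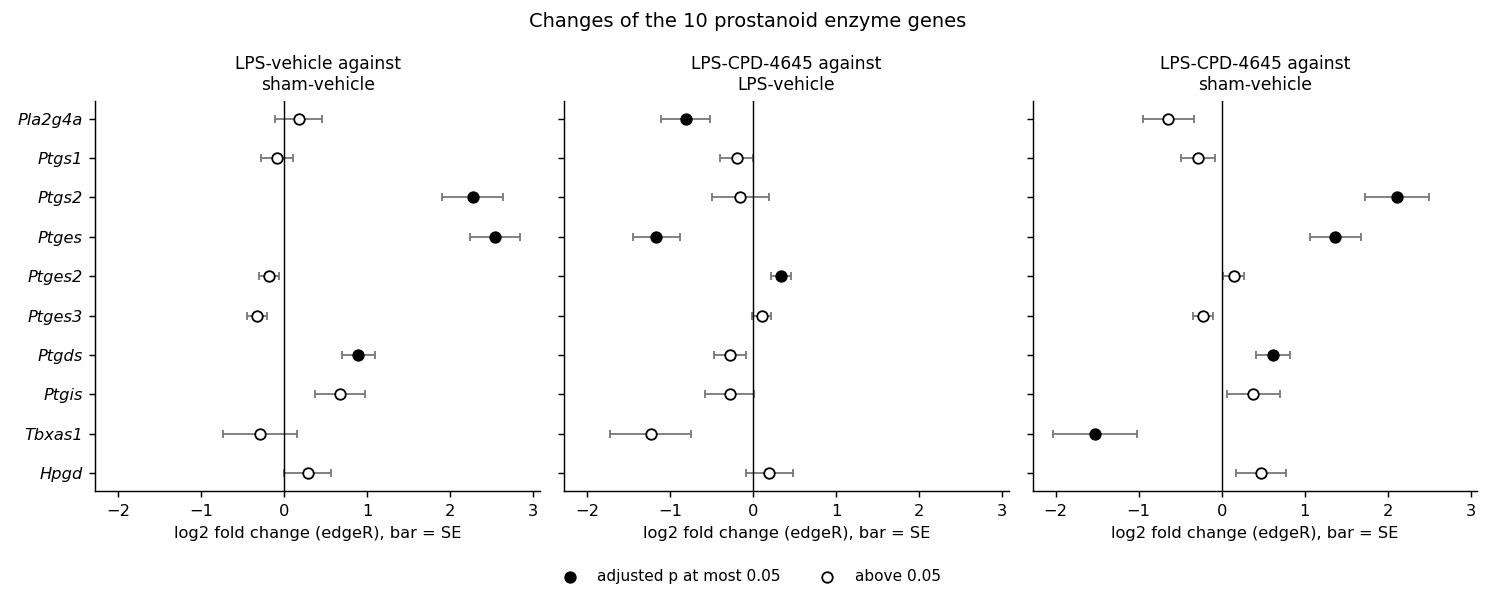
The log2 fold change of each of the 10 genes (horizontal axis) is plotted for the 3 comparisons, with the SE as a bar and a filled point where the edgeR adjusted p was at most 0.05. Ptges had values of 2.54, -1.17 and 1.37 across the panels, and Ptgs2 values of 2.27, -0.15 and 2.11.

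Of 39 further genes of the pathway, 34 were tested. After LPS 3 of these (8.82%) were called higher and 3 lower, beside 11.1% and 8.86% of all genes. With CPD-4645 against LPS_Vehicle 2 (5.88%) were called higher and 5 (14.7%) lower, beside 14.1% and 16.4% of all genes. In LPS_CPD4645 against Sham_Vehicle 3 (8.82%) were higher and 11 (32.4%) lower, beside 19.5% and 19.3%. The median log2 fold changes of the 34 genes were -0.14, -0.12 and -0.14 in this order, against 0.00, -0.02 and -0.01 over all genes. Among the 10 other prostanoid enzymes, Cbr3, a carbonyl reductase, was 7.85 to 9.33 CPM in Sham_Vehicle, 16.1 to 25.5 CPM in LPS_Vehicle and 22.1 to 38.1 CPM in LPS_CPD4645. It rose after LPS (log2 1.25 ± 0.16 SE, edgeR adjusted p = 2.07e-05) and was higher still with CPD-4645 (log2 0.57 ± 0.15 SE, adjusted p = 0.00973), the direction opposite to that of Ptges. The second call was lost without LPS_CPD4645 mouse 2 (log2 0.45, adjusted p = 0.0547). Akr1c14, a hydroxysteroid dehydrogenase, had 21 to 117 counts in the sham libraries, 0 to 3 in LPS_Vehicle and 0 to 2 in LPS_CPD4645, and was called lower in both LPS groups than in Sham_Vehicle (adjusted p = 6.94e-05 and 0.000311). Zadh2 (also named Ptgr3), a prostaglandin reductase, was lower with CPD-4645 than in LPS_Vehicle (log2 -0.58 ± 0.13 SE, adjusted p = 0.00252), with no overlap, and Ptgr2, another, was lower than in Sham_Vehicle (log2 -0.57 ± 0.14 SE, adjusted p = 0.00312).

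Of the 12 other phospholipases A2, 8 were tested. Pla2g4e was higher after LPS (log2 0.41 ± 0.11 SE, edgeR adjusted p = 0.0128, and 0.0557 without Sham_Vehicle mouse 4), while Pla2g7, which hydrolyses platelet-activating factor, was lower (log2 -0.50 ± 0.10 SE, adjusted p = 0.00129). With CPD-4645 against LPS_Vehicle, Pla2g6 was lower (log2 -0.49 ± 0.12 SE, adjusted p = 0.00595), as were Pla2g16 (log2 -0.32 ± 0.10 SE, adjusted p = 0.0226) and Pla2g15 (log2 -0.27 ± 0.10 SE, adjusted p = 0.0414), and Pla2g12a was higher (log2 0.39 ± 0.10 SE, adjusted p = 0.00674). All 4 had the same direction and were called against Sham_Vehicle too. The calls against LPS_Vehicle were lost in none of 22 alternative fits for Pla2g6 and Pla2g12a. For Pla2g16 the call was lost in 6 of 22, among them those without LPS_Vehicle mouse 5 or LPS_CPD4645 mouse 1, 2 or 4 (adjusted p up to 0.103). For Pla2g15 it was lost in 12 of 22, among them those without Sham_Vehicle mouse 1 or 3, LPS_Vehicle mouse 1 or 5 or any LPS_CPD4645 mouse (adjusted p up to 0.113).

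A list of 6 genes covered the making and hydrolysis of 2-AG and, with Faah, the hydrolysis of anandamide. Among them Mgll, which encodes MAGL, was 109 CPM in Sham_Vehicle and 116 CPM in both LPS groups on average. Its log2 fold change between the LPS groups was 0.00 ± 0.09 (SE, adjusted p = 0.987). Daglb, a diacylglycerol lipase, was called lower in every comparison, with log2 fold changes of -0.30 ± 0.10 (SE, edgeR adjusted p = 0.0374) after LPS, -0.28 ± 0.10 (SE, adjusted p = 0.0371) between the LPS groups and -0.58 ± 0.10 (SE, adjusted p = 0.000259) for LPS_CPD4645 against Sham_Vehicle. The first was lost in 8 of 22 alternative fits, among them those without Sham_Vehicle mouse 2, 3 or 4 or LPS_Vehicle mouse 1, 3 or 4 (adjusted p up to 0.114). The second was lost in 11 of 22, among them those without Sham_Vehicle mouse 3, LPS_Vehicle mouse 1, 2 or 5 or LPS_CPD4645 mouse 1, 2 or 4 (adjusted p up to 0.119). Abhd6, Abhd12, Faah and Dagla were not called in any comparison.

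Among the 11 receptors and transporters, 10 were tested. Ptgir, the prostacyclin receptor, was called higher after LPS (edgeR adjusted p = 0.0376), but had only 0 to 8 counts per sham library and 3 to 103 per LPS_Vehicle library, and the call was lost in 10 of 21 alternative fits, among them those without any 1 sham mouse, LPS_Vehicle mouse 1 or 2 or LPS_CPD4645 mouse 2 (adjusted p up to 0.165). None of the 10 was called between the LPS groups, where 0 were higher and 1 lower at an unadjusted p of at most 0.05, beside 19.4% and 22.0% of all genes. Against Sham_Vehicle, LPS_CPD4645 had lower Tbxa2r, the thromboxane receptor (log2 -1.62 ± 0.36 SE, adjusted p = 0.00157), Ptger3 (log2 -1.09 ± 0.33 SE, adjusted p = 0.0144) and Ptgfr (log2 -1.72 ± 0.58 SE, adjusted p = 0.0263), the last 2 being receptors for prostaglandin E2 and F. Ptgir was called higher there (log2 2.07 ± 0.77 SE, adjusted p = 0.0398), with every LPS_CPD4645 mouse above every sham mouse. That call was lost in 9 of 21 alternative fits, among them those without any 1 sham mouse or LPS_CPD4645 mouse 1, 2 or 3 (adjusted p up to 0.096). Ptgfr had 3 to 12 counts per LPS_CPD4645 library, and its call was lost without Sham_Vehicle mouse 1 or 3 or LPS_CPD4645 mouse 3 or 4.

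**Figure D5:**
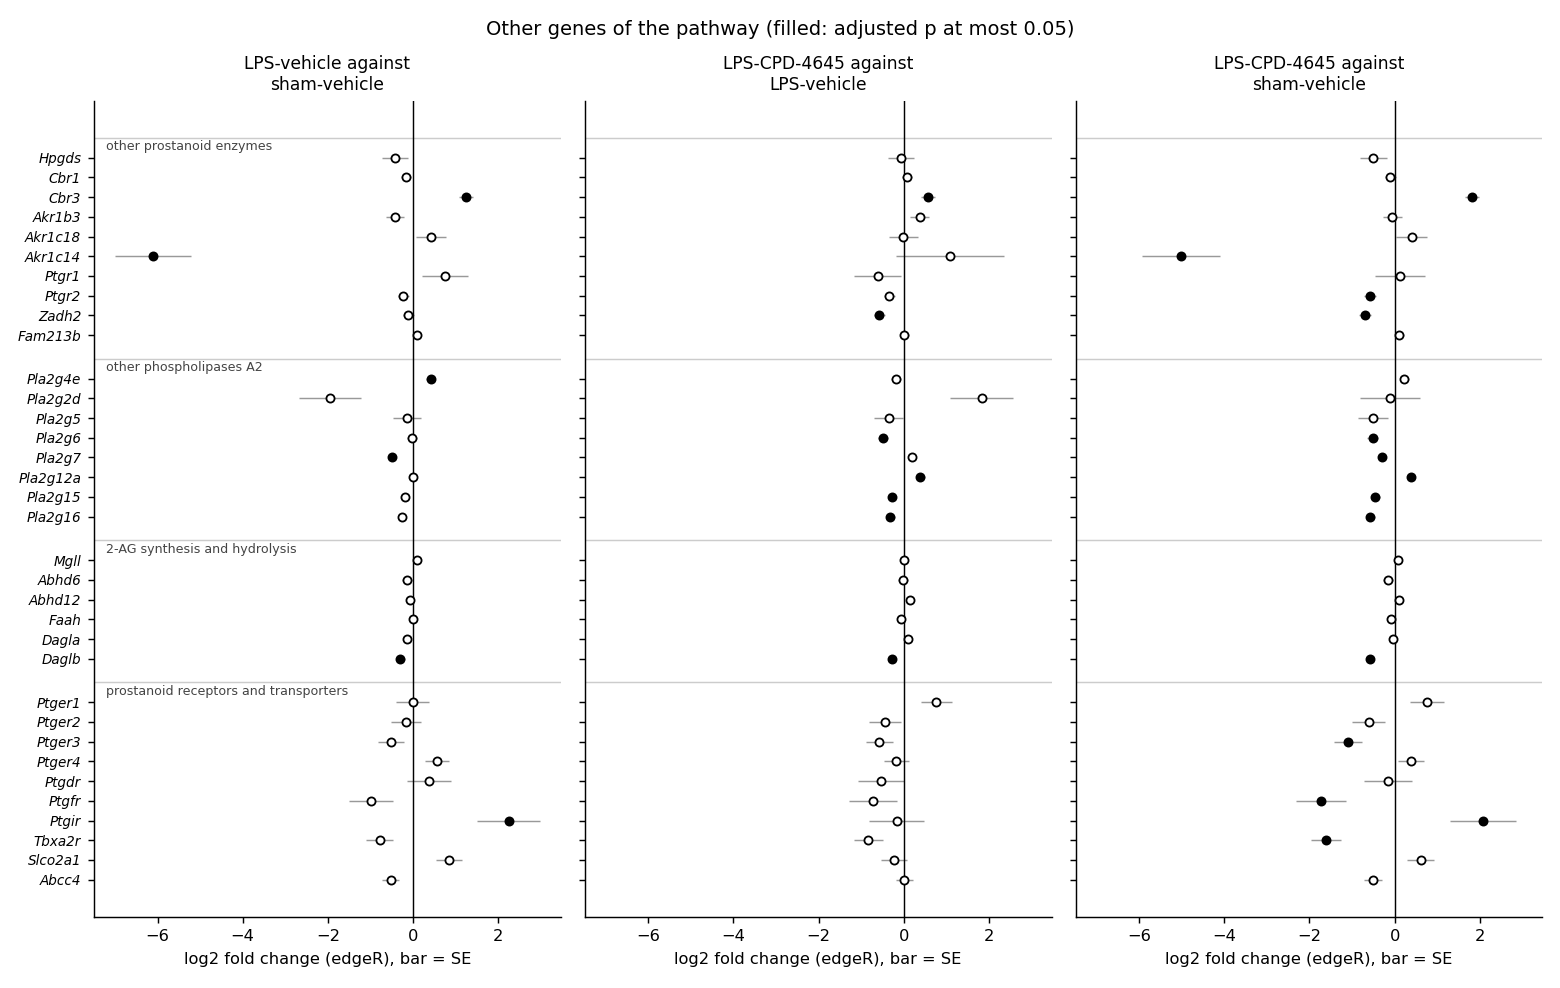
The log2 fold change of each of the 34 tested pathway genes (horizontal axis) is plotted by list for the 3 comparisons, with the SE as a bar and filled points at an edgeR adjusted p of at most 0.05. Cbr3 was called higher in all 3 panels and Daglb lower in all 3, and the value of Akr1c14, with 0 to 3 counts in the LPS libraries, depends on the prior count of the fit.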

How the data were processed

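Brain fractions of 13 mice, prepared by the authors to enrich vessels but with much RNA of other brain cells, were sequenced as stranded poly(A) libraries in 75-base single reads. Per the labels and methods, the authors converted reads with bcl2fastq 2.15.0.4, aligned them to mm10 with STAR 2.5.2a and deposited its raw gene counts for GENCODE release M9, of which the strand column kept is not given in the sources used here. Gene names and exon lengths came from GENCODE release M21 (GRCm38), which matched 47224 of 47643 identifiers.

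Counts were filtered (filterByExpr, minimum count 10, minimum total 15), scaled by TMM (factors 0.908 to 1.08) and tested in 1 quasi-likelihood fit of the 3 groups with no covariate (edgeR 4.0.16, R 4.3.3). Calls needed p of at most 0.05 after Benjamini-Hochberg adjustment over 17285 genes. SE is the log2 fold change over the root of F, and approximate intervals derive from it. Mice are the replicates, and no libraries within a group agreed within sampling noise (chi-square test of their counts). The permutation test used scipy 1.17.1, and steps were tested on simulated data. limma 3.58.1 and DESeq2 1.42.0 were alternatives. Depth of 7813559 to 55133373 counts limits the genes with few reads.

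The text names all 10 members, the pathway genes that were called, and for members the 3 genes most alike by Pearson correlation. The members and lists were chosen with earlier results of these data known. RefSeq promoters were searched over windows of 300 bases. Sequences and shares are given for the 250 bases before the start, and matches in the 50 bases after it only for the genes shown.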

Additional observations from a re-analysis of the deposited data

Results flagged for a closer look

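Hpgd in LPS_Vehicle mouse 3 was 14.4 CPM, and the other 4 mice of the group were at 3.97 to 6.28 CPM. The gap to the nearest mouse exceeded Dixon's limit for its group, the only such case among 30 groups of values (10 genes in 3 groups), where chance gives about 1 in 20. This was the shallowest library, with 114 Hpgd counts.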

How the results depend on the processing

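Over 22 alternative fits a comparison, 618 of 657 member values kept their side of the threshold and 8 changed sign, none of which was a called value. These were, on the log2 scale after LPS, Ptgs1 (0.0016 without LPS_Vehicle 3, within -0.25 to 0.0016 as mice were left out, and 0.0017 without the 2 shallowest libraries), Hpgd (-0.071 without LPS_Vehicle 3, within -0.071 to 0.46, and -0.0709 without the 2 shallowest) and Pla2g4a (-0.043 without Sham_Vehicle 2, within -0.043 to 0.35). Between the LPS groups it was Ptgs2 (0.11 with voom quality weights, 0.24 without LPS_Vehicle 2 and 0.11 without LPS_CPD4645 3, within -0.40 to 0.24).

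The count of members lower after LPS went from 0 to 1 (Ptges3) with DESeq2, with no filter and with a mean count of at least 50, and from 0 to 1 as mice were left out. Members higher with CPD-4645 against LPS_Vehicle (1, Ptges2) were 0 with limma-voom, with voom quality weights, with only the 2 groups compared and without the 2 shallowest libraries, and 0 to 1 as mice were left out. Members lower there (2) were 3, with Tbxas1, in limma-voom, DESeq2 and without the 2 shallowest libraries, and 1 to 3 as mice were left out. Members higher in LPS_CPD4645 than in Sham_Vehicle (3) were 4, with Hpgd, under voom quality weights, and 2 to 3 as mice were left out. Members lower in LPS_CPD4645 than in Sham_Vehicle (1, Tbxas1) were 2 with voom quality weights and without the 2 shallowest libraries, 0 at a mean count minimum of 50, a filter that removes Tbxas1, and 0 to 2 as mice were left out. Where construction does not show it, the cause was not tested. Leaving out the 2 shallowest libraries was chosen after seeing the data.

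A pairing of the mice by replicate number was not shown. The deviations of 12 same-numbered pairs correlated at r = -0.03 to 0.11, with 1 over 0.1, beside -0.14 to 0.12 for 44 other pairs. Of 13 libraries, 6 correlated best with their own number. With the replicate block, members lower between the LPS groups went from 2 to 1, without Pla2g4a (adjusted p = 0.0607), and the other counts of members stayed at 3 and 0 after LPS, 1 higher between the LPS groups and 3 and 1 against Sham_Vehicle.

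Depth limits Tbxas1, Ptgis and Pla2g4a, with as few as 4, 22 and 39 counts. The permutation test of 4 against 5 mice cannot go below p = 0.0159.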
